A study of Sus scrofa with 12 samples.

Results

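Pig (Sus scrofa) oocytes sampled at 28 h of maturation in vitro were set against the average of oocytes sampled before maturation (0 h) and after its end (44 h), to find transcripts that stand higher or lower in the middle of maturation than at both ends. The comparison used 9 of the 12 libraries of the series, 3 at 28 h, 3 at 0 h and 3 at 44 h. The remaining 3 libraries, taken at 12 h, entered the estimate of the spread between libraries but not the difference. All groups held total RNA of denuded oocytes, that is, oocytes stripped of the cumulus cells that surround them, which per the series title matured in a medium of chemically defined composition. Time was the only factor that separated the groups. The labels give no breed, animal age, number of oocytes per library or meiotic stage, and nothing in them tells if libraries of 1 group came from separate animals or cultures, so the p-values below measure only the spread between these libraries.

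A fully grown oocyte holds a large store of messenger RNA made during its growth, and its own transcription is generally low. During maturation the nuclear envelope breaks down, the chromosomes condense, the meiotic spindle forms and the oocyte proceeds to arrest at metaphase II. Over the same period many stored messages are translated or broken down under the control of their poly(A) tails. The share of a transcript in the total RNA can change through synthesis or decay.

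Library totals at the 3 times ran from 21877235 to 26015373 gene counts, and 12977 of the 28965 genes in the table had enough counts to be tested. All 18 oocyte markers in the table, among them GDF9 and BMP15, growth factors secreted by the oocyte, had counts in every library. Gene levels are given as CPM, each gene's counts divided by the scaled library total and put on a common scale. CPM is therefore a share of the RNA, and no spike-in is mentioned in the protocols, so a change in share cannot be told apart from an opposite change in the rest of the RNA. In such bulk samples fewer cells of a type and less RNA per cell cannot be told apart either. The column names carry 1 lane for all libraries, and the labels give no batch.

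At 28 h, 53 genes were called higher than the average of 0 h and 44 h, which is 0.408% of the genes tested, by the quasi-likelihood test of edgeR, Benjamini-Hochberg adjusted, at a threshold of 0.05. The genes called lower numbered 0 (0%). The called genes were of 2 kinds. In 35 genes the 28 h mean lay above both the 0 h mean and the 44 h mean, and in 18 genes it lay between them, nearer on the log2 scale to the 0 h mean than to the 44 h mean. Over all genes tested the median log2 difference was 0.01.

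The 35 genes with a turn at 28 h included the transcriptional repressor ZEB2, the kinesin KIF1C, the microtubule-associated proteins MAP1B and MAP1A, the mitochondrial transport adaptor TRAK2, the collagen receptor ANTXR1 and the ERK-binding protein PEA15. Their summed level was 1407 to 1447 CPM in the 28 h libraries, against 852 to 914 CPM in those of 0 h and 800.4 to 865 CPM in those of 44 h. At 12 h it was 1132 to 1231 CPM. These sums describe genes chosen by the same values and carry no test. In 26 of the 35 genes all 3 libraries at 28 h lay above all 6 libraries of 0 h and 44 h. Among all genes tested 1.2% showed that order and 0.509% showed the opposite order, with all 28 h libraries below the other 6. The high share among the 35 follows from how they were chosen.

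**Figure D1:**
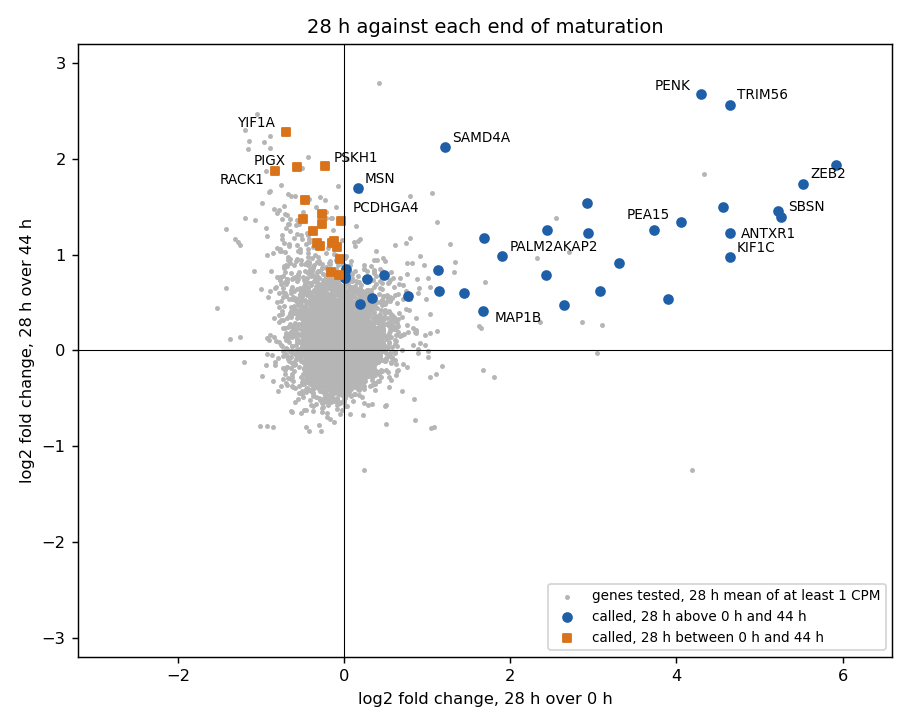
Each point is a gene, placed by its log2 fold change of 28 h over 0 h (x axis) and of 28 h over 44 h (y axis), from fits that share the 28 h libraries. The 35 called genes with 28 h above both ends (blue circles) spread over the upper right part, the 18 called genes with 28 h between the ends (orange squares) sit left of 0 on the x axis and above 0 on the y axis, and no called gene lies at the lower left.

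A stricter test asked for a gene to be above 0 h and above 44 h separately, taking the larger of the 2 one-sided p-values for each gene. It called 10 genes, 0.0771% of those tested, namely PALM2AKAP2, ZEB2, KIF1C, TRIM56, PEA15, MAP1B, NEK9, TRAK2, SAMD4A and PENK. All 10 belonged to the 35 genes with a turn. At an unadjusted p under 0.05 the same test named 116 genes. The test says nothing of 12 h, and 1 of the 10, SAMD4A, was higher there than at 28 h.

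ZEB2, a zinc finger and homeodomain protein that represses E-cadherin and other epithelial genes, lies on chromosome 15 at 7499026 to 7632655 of Sscrofa11.1. It had 35.1, 26.6 and 29.7 CPM at 28 h, against 0.705, 0.777 and 0.485 CPM at 0 h and 11.6, 9.11 and 6.53 CPM at 44 h. Every 28 h library stood above every library of either end, and the 44 h libraries all stood above those of 0 h. The log2 difference from the average of both ends was 3.63 ± 0.18 (SE; adjusted p = 1.24e-11). Its share at 44 h was 29.8% of that at 28 h, and at 12 h it had 7.61 ± 1.89 CPM (SD, n = 3), so the 12 h and 44 h levels overlapped. In the separate comparisons, which share the 28 h libraries, the log2 difference was 5.52 ± 0.26 from 0 h and 1.74 ± 0.19 from 44 h.

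Of 39 tested genes in the list of microtubule and anchoring proteins 4 were called, all of them higher, beside 0.408% of all genes: the kinesin KIF1C, the microtubule-associated MAP1B and MAP1A, and the kinase anchor PALM2AKAP2. The list was chosen with earlier results of these data known, so its share of called genes is a description without a test. KIF1C, a kinesin that carries cargo along microtubules, had 95.3, 85.1 and 78.6 CPM at 28 h, against 3.56, 3.85 and 2.95 CPM at 0 h and 46.1, 49.4 and 36.4 CPM at 44 h. The 3 groups did not overlap. The log2 difference was 2.81 ± 0.11 (SE; adjusted p = 2.8e-14), the smallest p among the 12977 genes, with 28.3 ± 3.88 CPM at 12 h (SD, n = 3). KIF1C lies on chromosome 12 at 51897763 to 51924437 and overlaps INCA1 on the opposite strand, and whether the counting used strand is not given in the sources used here, so reads of both genes may be mixed.

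MAP1B, which binds and stabilises microtubules and is best known from growing axons, had 249, 253 and 264 CPM at 28 h, against 75.6, 90.1 and 73.9 CPM at 0 h and 194, 195 and 188 CPM at 44 h. All 28 h libraries were the highest, and the 44 h libraries kept 75.4% of the 28 h level, more than any other of the 35 genes. The log2 difference was 1.04 ± 0.06 (SE; adjusted p = 6.99e-11), made up of 1.68 ± 0.08 from 0 h and 0.41 ± 0.07 from 44 h. Its gene, at 48403526 to 48498896 on chromosome 16, overlaps MRPS27 on the opposite strand. The related MAP1A (chromosome 1, 127916644 to 127936955) had 12.2, 12.5 and 12.6 CPM at 28 h, against 5.18, 5.56 and 2.95 CPM at 0 h and 8.94, 9.15 and 6.53 CPM at 44 h. Its groups did not overlap in the order 28 h, 44 h, 0 h, and its log2 difference was 1.02 ± 0.17 (SE; adjusted p = 0.00193). The difference of MAP1A from 44 h alone, 0.60 ± 0.20 on the log2 scale, did not pass the test (adjusted p = 0.0948).

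PALM2AKAP2 encodes an anchoring protein of protein kinase A, the kinase through which cyclic AMP holds meiosis back, joined to paralemmin 2. It had 72.8, 71.9 and 64.7 CPM at 28 h, against 20.3, 19.4 and 16.3 CPM at 0 h and 35.1, 36.7 and 34.1 CPM at 44 h. The groups did not overlap, and the spread within each was small beside the distance between them. The log2 difference was 1.44 ± 0.08 (SE; adjusted p = 3.28e-11), with 50.6% of the 28 h level left at 44 h. The gene spans 250680942 to 251190239 of chromosome 1. At 12 h it had 50.1 ± 4.77 CPM (SD, n = 3), between 0 h and 28 h.

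TRAK2 links mitochondria to kinesin and dynein motors. It had 59.3, 54.3 and 49.0 CPM at 28 h, against 32.5, 31.8 and 30.9 CPM at 0 h and 34.6, 39.0 and 36.4 CPM at 44 h. All 28 h libraries lay above all of 0 h and 44 h, while the 12 h libraries, at 43.2 ± 6.16 CPM (SD, n = 3), overlapped with them. The difference was the smallest of the 10 genes of the stricter test. It came to 0.67 ± 0.09 on the log2 scale (SE; adjusted p = 8.09e-05), or 1.71-fold over 0 h and 1.48-fold over 44 h. TRAK2 is on chromosome 15 at 104991726 to 105055024.

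ANTXR1, a membrane receptor of collagen that the anthrax toxin also binds, was the called member of 32 tested genes of the extracellular matrix and integrins. It had 10.4, 12.2 and 11.8 CPM at 28 h, against 0.332, 0.816 and 0.202 CPM at 0 h and 5.82, 5.196 and 3.65 CPM at 44 h. The 28 h libraries were the highest and the 0 h libraries the lowest, with no overlap. The log2 difference was 2.93 ± 0.25 (SE; adjusted p = 9.74e-08), and the 12 h level was 1.83 ± 0.70 CPM (SD, n = 3). In the stricter test ANTXR1 missed the threshold (adjusted p = 0.0814). The gene lies at 73157752 to 73398345 on chromosome 3.

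PEA15, which holds the kinase ERK in the cytoplasm and has a death effector domain, had 11.5, 13.6 and 12.6 CPM at 28 h, against 1.24, 0.466 and 0.566 CPM at 0 h and 4.78, 5.54 and 4.58 CPM at 44 h. The 3 groups did not overlap, and the 12 h libraries, at 7.36 ± 1.91 CPM (SD, n = 3), lay above the 0 h libraries. The log2 difference was 2.69 ± 0.20 (SE; adjusted p = 5.45e-09). Its place is chromosome 4, 90263584 to 90274144.

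**Figure D2:**
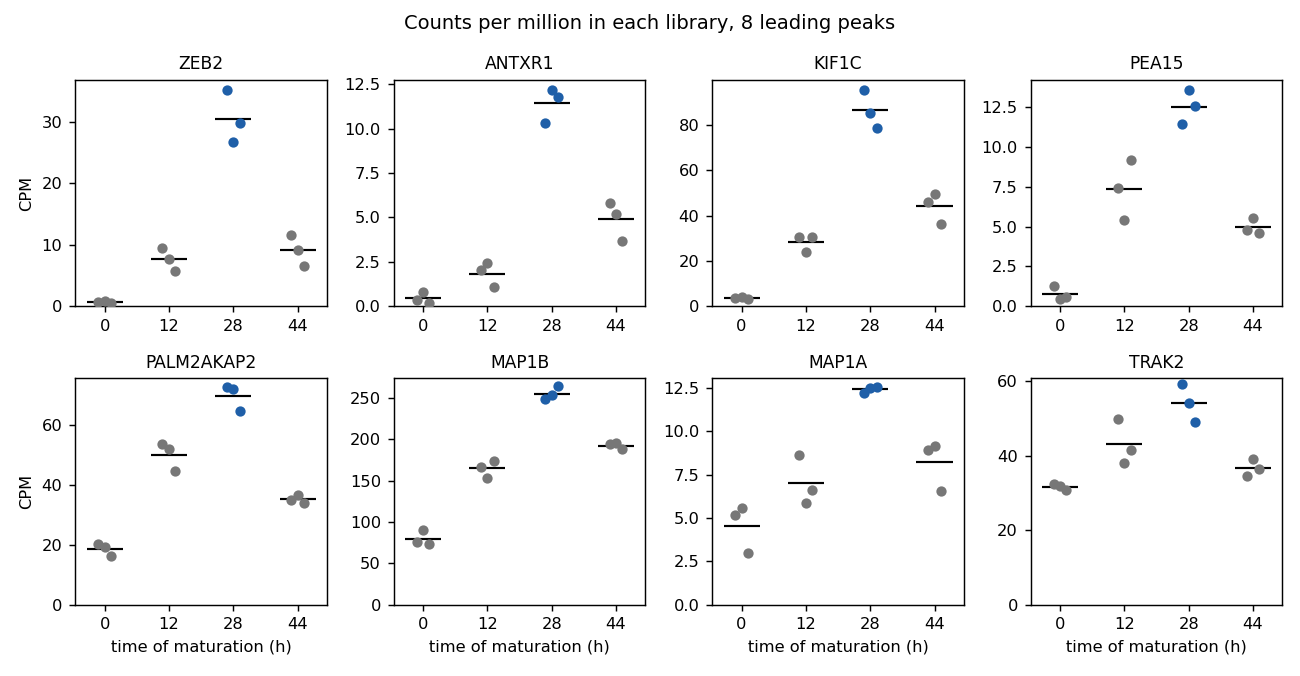
CPM (y axis, from 0) at each time of maturation in hours (x axis) for the 8 genes with the largest differences among those with a symbol whose 28 h libraries all lay above the 6 libraries of 0 h and 44 h and whose 28 h mean was at least 10 CPM. Each point is a library, blue at 28 h and grey at other times, and bars are means of 3; in every panel the lowest blue point lies above all points of 0 h and 44 h.

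The genes named from here to the end of the 35, apart from PABPC1, MSN, INHBA and COX7A2L, were chosen after their values were seen. Scarce transcripts made up much of the rest of the 35 genes: 16 of them had a 0 h mean under 1 CPM and 18 had a 28 h mean of at least 10 CPM. TRIM56, a ubiquitin ligase of innate immune signalling, had 4.91, 4.50 and 5.05 CPM at 28 h, against 0.290, 0.272 and 0 CPM at 0 h and 0.886, 0.853 and 0.689 CPM at 44 h. The 28 h libraries stood well above both ends, with 16.8% of their level left at 44 h (log2 difference 3.61 ± 0.31, SE; adjusted p = 8.01e-08). PENK, the precursor of the enkephalin peptides, had 1.67, 1.66 and 3.27 CPM at 28 h, against 0.166, 0.155 and 0 CPM at 0 h and 0.424, 0.388 and 0.203 CPM at 44 h. Replicate 4 stood above the other 28 h libraries, and none overlapped with either end (log2 difference 3.49 ± 0.48, SE; adjusted p = 0.000183). In the stricter test PENK only just passed (adjusted p = 0.0489). It did not pass that test with upper-quartile or plain scaling, limma-voom, no robust estimation or a replicate block, nor in several fits that left out a library. Its 0 h counts were 4, 4 and 0, and it overlaps ENSSSCG00000036133 on its own strand.

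Signalling genes among the 35 included INHBA, GDF11, CCND2 and CFLAR. INHBA, which encodes the subunit that makes activin A and was taken here as a marker of granulosa cells, had 7.38, 7.63 and 9.53 CPM at 28 h, against 1.33, 2.29 and 0.890 CPM at 0 h and 7.01, 3.80 and 3.36 CPM at 44 h. Its highest 44 h library came close to the lowest of 28 h, without overlap (log2 difference 1.61 ± 0.23, SE; adjusted p = 0.000431). GDF11, a growth factor of the same superfamily, averaged 5.27 ± 1.10 CPM at 28 h, against 0.618 ± 0.130 CPM at 0 h and 3.42 ± 1.47 CPM at 44 h (SD, n = 3 each). It overlaps SARNP on the opposite strand, and its 28 h and 44 h libraries overlapped. CCND2, a cyclin of the entry into the cell cycle, stayed near 1 CPM at 28 h and lost its call without any 1 of 5 libraries (replicates 2, 3 and 4 of 28 h, replicate 2 of 0 h or replicate 2 of 44 h; adjusted p from 0.0548 to 0.16). CFLAR, an inhibitor of caspase 8, averaged 2.98 ± 0.890 CPM at 28 h, against 0.297 ± 0.111 CPM at 0 h and 1.58 ± 0.437 CPM at 44 h.

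Genes that bind RNA or serve translation were SAMD4A, PABPC1, TIA1 and EIF3A. SAMD4A, whose Drosophila relative Smaug represses and destabilises maternal messages, had 6.30, 6.61 and 4.85 CPM at 28 h, against 2.53, 2.99 and 2.10 CPM at 0 h and 1.43, 1.63 and 1.01 CPM at 44 h. The ends overlapped nowhere with 28 h, and the 44 h libraries were the lowest (log2 difference 1.67 ± 0.19, SE; adjusted p = 1.67e-05). At 12 h SAMD4A had 9.29 ± 1.98 CPM (SD, n = 3), above its 28 h mean. PABPC1, the cytoplasmic poly(A)-binding protein, was the called member of 48 tested genes of poly(A) control and mRNA decay. It had 17.6, 17.8 and 10.7 CPM at 28 h, against 6.71, 8.24 and 6.11 CPM at 0 h and 11.5, 8.22 and 5.96 CPM at 44 h. The lowest 28 h library lay below the highest 44 h library, and the call (log2 difference 0.99 ± 0.18, SE; adjusted p = 0.00628) was lost without replicate 3 of 28 h (adjusted p = 0.131) or without replicate 2 of 28 h (0.0676). PABPC1 belongs to a family with processed copies in mammalian genomes, so its counts are uncertain. EIF3A, the largest subunit of the translation initiation factor eIF3, averaged 40.7 ± 2.69 CPM at 28 h, against 32.2 ± 2.71 CPM at 0 h and 27.9 ± 0.550 CPM at 44 h (SD, n = 3 each). The call of EIF3A was lost without replicate 3 of 28 h (adjusted p = 0.0943) or replicate 4 of 28 h (0.116), and TIA1, an RNA-binding protein of stress granules, rested on replicate 3 of 28 h, without which its adjusted p was 0.311.

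The 35 genes also held NEK9, a kinase of spindle assembly, VASH1, which removes the last tyrosine of tubulin, ADD2, a spectrin-binding cap of actin filaments, and MSN, moesin, which ties actin to the membrane. NEK9 averaged 7.20 ± 0.547 CPM at 28 h, against 2.24 ± 0.397 CPM at 0 h and 3.19 ± 0.704 CPM at 44 h (SD, n = 3 each), and passed the stricter test (adjusted p = 0.0117). VASH1 averaged 3.01 ± 0.176 CPM at 28 h, against 0.547 ± 0.133 CPM at 0 h and 1.25 ± 0.595 CPM at 44 h (SD, n = 3 each), while ADD2 stayed below 3 CPM in every 28 h library and overlapped with 44 h. The call was lost for VASH1 without replicate 3 of 28 h (adjusted p = 0.0559), and for ADD2 without replicate 3 (0.161) or 4 (0.261) of 28 h or replicate 2 of 0 h (0.0618). MSN was the called member of 49 tested actin and adhesion genes. It had 11.97, 15.7 and 15.2 CPM at 28 h, against 13.1, 13.2 and 12.1 CPM at 0 h and 4.81, 3.64 and 4.82 CPM at 44 h. Here 28 h and 0 h overlapped, and the difference of 0.93 ± 0.14 on the log2 scale (SE; adjusted p = 0.000536) came from 44 h. COX7A2L, an assembly factor of respiratory supercomplexes and the called member of 63 tested nuclear-encoded respiratory chain genes, had the same form, with 237, 241 and 229 CPM at 28 h, against 236, 241 and 227 CPM at 0 h and 141, 121 and 157 CPM at 44 h.

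Others of the 35 were SBSN, CAVIN1 (a coat protein of caveolae), CYP1B1 (a cytochrome P450 of steroid and xenobiotic oxidation), KCTD20, KIAA0513, TBC1D1 (a Rab GTPase-activating protein), ZFP1 (a zinc finger protein) and 3 genes without a symbol. CYP1B1 had 7.07, 7.79 and 5.80 CPM at 28 h, against 0.166, 0.389 and 0.809 CPM at 0 h and 5.78, 5.47 and 2.96 CPM at 44 h. The 28 h libraries lay above all of 0 h and 44 h, but the difference from 44 h alone did not pass (adjusted p = 0.353). SBSN, which shares its strand and part of its span with DMKN, averaged 5.83 ± 0.393 CPM at 28 h, against 0.150 ± 0.122 CPM at 0 h and 2.21 ± 0.732 CPM at 44 h (SD, n = 3 each). CAVIN1 averaged 5.11 ± 1.57 CPM at 28 h, against 0.671 ± 0.308 CPM at 0 h and 1.75 ± 0.339 CPM at 44 h (SD, n = 3 each). ENSSSCG00000045920, on chromosome 7, had 56.0, 41.9 and 52.5 CPM at 28 h, against 1.82, 1.83 and 0.364 CPM at 0 h and 27.5, 13.5 and 13.5 CPM at 44 h. Its 28 h libraries lay above both ends, but its call (adjusted p = 0.0188) was lost in 9 of the 12 fits that left out a library. KCTD20, KIAA0513, TBC1D1 and ZFP1 stood further above 44 h than above 0 h. Their 28 h means were 1.39, 1.21, 1.01 and 1.14 times those of 0 h. Against 44 h the ratios were 1.72, 1.68, 1.72 and 1.39. Each of the genes lost its call when some single library was left out.

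Over the 35 genes, the share of the 28 h level left at 44 h ran from 15.4% (PENK) to 75.4% (MAP1B) with a median of 50.9%. The 44 h mean was above the 0 h mean in 26 genes and below it in 9. Taken singly, 27 of the 35 were called higher than 0 h, where 0.609% of all genes tested were, and 23 were called higher than 44 h, where 4.3% were. The 35 were chosen by the same libraries, so high shares follow from the choice and are no further support. At 12 h, 26 genes had a mean between 0 h and 28 h, and 8 had a mean above that of 28 h, among them ADD2, SAMD4A, MSN, TBC1D1 and the unnamed ENSSSCG00000045920 and ENSSSCG00000051614. The exception was COX7A2L, whose 12 h mean, 228 CPM, was under the 0 h mean of 235 CPM.

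**Figure D3:**
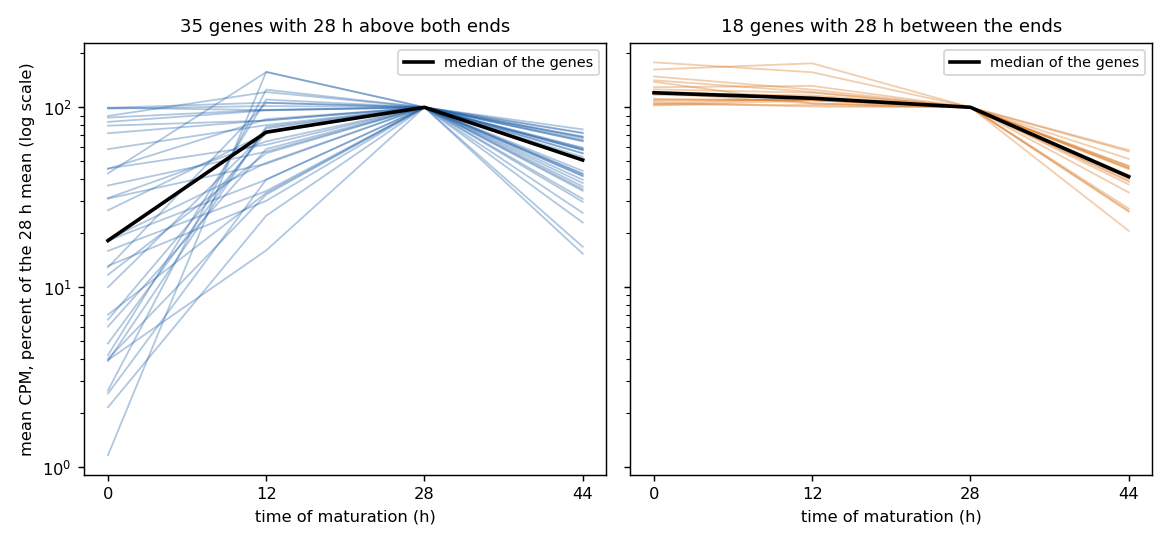
Mean CPM of each called gene as a percent of its 28 h mean (y axis, log scale) at 0, 12, 28 and 44 h (x axis), for the 35 genes with 28 h above both ends (left) and the 18 genes with 28 h between them (right). Thin lines are genes and the thick line is their median at each time; on the left the lines climb to 28 h and come down to between 15.4% and 75.4%, and on the right 28 h stands at 0.562 to 0.978 times the 0 h level and the lines end between 20.6% and 57.9%.

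The 18 genes with 28 h between the ends included the kinase PSKH1, the protocadherin PCDHGA4, the ribosomal protein RPL23A and genes of the secretory route such as YIF1A and ERP44. At 28 h they held 0.562 to 0.978 times their 0 h level, and at 44 h 20.6% to 57.9% of their 28 h level, with a median of 41.1%. All 18 were called higher than 44 h and 5 were called lower than 0 h, where 2.05% of all genes tested were lower. Being chosen by the same libraries, the 18 give no further support through these counts. In 17 of the 18 the 12 h mean was within 20% of the 0 h mean. Their summed level was 3167 to 3473 CPM in the 28 h libraries, against 3601 to 3691 CPM in those of 0 h and 1273 to 1675 CPM in those of 44 h, about which no test is given for the same reason as above.

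PSKH1, a serine kinase of the secretory compartments and nucleus, had 34.5, 40.5 and 44.2 CPM at 28 h, against 46.7, 43.0 and 50.1 CPM at 0 h and 10.6, 8.18 and 12.6 CPM at 44 h. The 28 h and 0 h libraries overlapped and the 44 h libraries stood apart, well below both. The log2 difference from the average was 0.85 ± 0.10 (SE; adjusted p = 3.23e-05), where that from 44 h was 1.93 ± 0.13 and that from 0 h was -0.23 ± 0.12. PSKH1, on chromosome 6 at 28508823 to 28544062, overlaps CTRL and PSMB10 on the opposite strand. YIF1A, which takes part in transport between endoplasmic reticulum and Golgi, had 11.4, 10.7 and 11.5 CPM at 28 h, against 18.3, 17.5 and 18.7 CPM at 0 h and 2.58, 1.78 and 2.55 CPM at 44 h. Its 28 h level lay between the ends without overlap (log2 difference 0.79 ± 0.13, SE; adjusted p = 0.00161), and it kept 20.6% of that level at 44 h. YIF1A lies on chromosome 2 at 6095877 to 6102037.

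PIGX, a subunit of the mannosyltransferase that builds GPI anchors (chromosome 13, 133389060 to 133420285), had 16.3, 19.4 and 15.0 CPM at 28 h, against 27.8, 23.9 and 23.6 CPM at 0 h and 3.74, 4.03 and 5.72 CPM at 44 h. The groups did not overlap, but the call (log2 difference 0.67 ± 0.13, SE; adjusted p = 0.00815) was lost without replicate 3 of 28 h (adjusted p = 0.261), and PAK2 overlaps the gene on the same strand. PCDHGA4, a gamma protocadherin of the cell surface, had 1464, 1477 and 1678 CPM at 28 h, against 1619, 1555 and 1551 CPM at 0 h and 623, 479 and 708 CPM at 44 h. The 28 h libraries overlapped with those of 0 h, and all lay above 44 h (log2 difference 0.66 ± 0.08, SE; adjusted p = 0.000228). The gene, annotated at 142983077 to 143156558 on chromosome 2, covers other genes of its cluster on the same strand, PCDHGB1, PCDHGA6 and PCDHGB5 among them, so its counts are uncertain as those of a single gene.

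RPL23A, a protein of the large ribosomal subunit, was the called member of 55 tested cytosolic ribosomal proteins. It had 126, 153 and 135 CPM at 28 h, against 187, 180 and 218 CPM at 0 h and 58.0, 44.4 and 57.3 CPM at 44 h. Its groups did not overlap in the order 0 h, 28 h, 44 h, and the call (log2 difference 0.44 ± 0.08, SE; adjusted p = 0.00815) was lost without replicate 3 of 28 h (adjusted p = 0.238) or replicate 4 of 28 h (0.0595). It hosts small nucleolar RNA genes and overlaps TLCD1. RACK1, a scaffold on the small ribosomal subunit, was chosen after its values were seen. It averaged 25.4 ± 2.55 CPM at 28 h, against 45.2 ± 2.99 CPM at 0 h and 6.94 ± 0.465 CPM at 44 h (SD, n = 3 each). On the log2 scale 28 h lay 0.52 ± 0.10 above the average of both ends (SE; adjusted p = 0.0136), but on the linear scale it lay 0.659 CPM below that average, so the direction for RACK1 depends on the scale. Its call was lost with limma-voom (adjusted p = 0.0761) and without replicate 3 of 28 h (0.343), replicate 4 of 28 h (0.0953) or replicate 2 of 44 h (0.0518). No other of the 53 genes changed direction in that way.

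The other members of the 18, all named after their values were seen, were UST (a sulfotransferase of glycosaminoglycans), ERP44 (a chaperone of the early secretory route), RAB6A (a Golgi GTPase), SEMA4B (a membrane semaphorin), ATP10D (a lipid flippase), MARS1 (the methionyl-tRNA synthetase), TAF6L (a subunit of histone acetyltransferase complexes), KLF16 (a zinc finger transcription factor), F2 (prothrombin), C6orf52, ENSSSCG00000015337 and ENSSSCG00000002709. UST had 27.1, 27.6 and 27.4 CPM at 28 h, against 34.8, 34.8 and 29.4 CPM at 0 h and 10.4, 10.5 and 9.69 CPM at 44 h. Its 28 h libraries lay below all of 0 h and above all of 44 h. SEMA4B averaged 146 ± 3.52 CPM at 28 h, against 152 ± 17.4 CPM at 0 h and 75.5 ± 6.33 CPM at 44 h (SD, n = 3 each). Of these 12 genes UST, ERP44 and SEMA4B kept their call whichever library was left out, and the other 9 lost it without at least 1. MARS1, F2 and ATP10D overlap genes on the opposite strand, and ENSSSCG00000015337 and TAF6L overlap genes on their own strand.

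No gene was called lower at 28 h than the average of both ends by edgeR, and none passed the stricter test for a dip, 28 h below 0 h and below 44 h separately. At an unadjusted p under 0.05 the contrast named 175 genes lower and 514 higher, 689 in all, and the dip test named 62. DESeq2 called 3 genes lower and limma-voom 0, and both called 0 dips. The smallest adjusted p among the lower genes was 0.0804, shared by MADD and ENSSSCG00000003903, which were chosen after their values were seen. MADD, an exchange factor for Rab3 GTPases, had 338, 282 and 310 CPM at 28 h, against 349, 329 and 367 CPM at 0 h and 380, 430.5 and 385 CPM at 44 h. Its 28 h libraries overlapped with those of 0 h (log2 difference -0.27 ± 0.06, SE). ENSSSCG00000003903, which overlaps NSUN4 on its own strand, had 19.4, 17.97 and 20.3 CPM at 28 h, against 29.7, 27.8 and 31.9 CPM at 0 h and 21.3, 21.6 and 20.2 CPM at 44 h, so that it differed mainly from 0 h (log2 difference -0.38 ± 0.09, SE).

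Genes of a panel, chosen with earlier results of these data known, were followed whether called or not. FLNA, filamin A, which crosslinks actin, had 9.004, 5.72 and 17.2 CPM at 28 h, against 0.787, 0.544 and 0.405 CPM at 0 h and 26, 26.1 and 23.6 CPM at 44 h. The 44 h libraries were the highest, replicate 4 stood well above the other 28 h libraries, and the difference from the average, 1.47 ± 0.34 on the log2 scale (SE), did not pass (adjusted p = 0.163). CALD1, caldesmon, had 25.2, 22.8 and 23.2 CPM at 28 h, against 14.3, 17.3 and 17.3 CPM at 0 h and 25.3, 22.9 and 19.3 CPM at 44 h, so 28 h and 44 h overlapped (adjusted p = 0.47 for the difference from the average). ZP3, a glycoprotein of the zona pellucida, had 695.5, 820.1 and 665 CPM at 28 h, against 1713, 1265 and 1883 CPM at 0 h and 172, 174 and 161 CPM at 44 h. Its groups did not overlap, and its log2 difference of 0.47 ± 0.11 (SE) did not pass (adjusted p = 0.175).

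The oocyte growth factors and the regulators of meiosis lay near the average of both ends. BMP15 averaged 4001 ± 170 CPM at 28 h, against 5003 ± 420 CPM at 0 h and 3964 ± 110 CPM at 44 h, and GDF9 1247 ± 15.1 CPM at 28 h, against 1499 ± 51.5 CPM at 0 h and 1078 ± 16.6 CPM at 44 h (SD, n = 3 each). Their log2 differences from the average were -0.15 ± 0.06 and -0.03 ± 0.05 (SE). For WEE2, the oocyte kinase that inhibits CDK1, the difference was 0.01 ± 0.05, for CCNB1, the cyclin B1 partner of CDK1, -0.04 ± 0.05, for MOS, the kinase upstream of MAP kinase in oocytes, 0.13 ± 0.06, and for DNMT1, the maintenance DNA methyltransferase, 0.13 ± 0.06 (SE). The smallest adjusted p among these 6 was 0.667, for BMP15.

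Of 22 gene lists for pathways and structures, 7 had a called member, and 10 of the 887 distinct listed genes tested were called, beside 53 of 12977 over all genes. No list other than that of microtubule and anchoring proteins, with KIF1C, MAP1B, MAP1A and PALM2AKAP2, had more than 1. All lists were chosen with earlier results of these data known, so these counts carry no test. The list of zinc finger and homeodomain factors had ZEB2 among 41 tested. No member was called in the lists of meiotic cell cycle regulators (36 tested), spindle and kinetochore (49), zona pellucida and oocyte growth (18), maternal-effect genes (17), mitochondrially encoded genes (13), glycolysis (35), redox enzymes (29), histones (18), DNA methylation and histone modification (72), proteasome and ubiquitin (44), splicing (50), immediate early and stress genes (37), TGF-beta, Wnt and Notch signalling (54), nuclear pore and transport (49) and lipid metabolism (48). The median log2 difference from the average of both ends ran from -0.16 for mitochondrially encoded genes to 0.15 for extracellular matrix and integrins.

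The ribosomal proteins show what a median near 0 in this contrast can hold. Of 55 tested, 38 were called lower at 28 h than at 0 h and 38 were called higher at 28 h than at 44 h, where 2.05% and 4.3% of all genes tested were. Their median log2 difference was -0.50 from 0 h and 0.56 from 44 h, which left 0.04 from the average. The respiratory chain list, with 15 of 63 lower than 0 h and 13 higher than 44 h, and the histone genes, with 4 of 18 lower than 0 h and 6 higher than 44 h, had the same order of medians, -0.32 and 0.21 for the respiratory chain and -0.37 and 0.30 for histones. Of the zona pellucida and oocyte growth genes, 7 of 18 were lower than 0 h and 4 higher than 44 h. The differences from 0 h and from 44 h share the 28 h libraries, so neither is a check on the other.

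**Figure D4:**
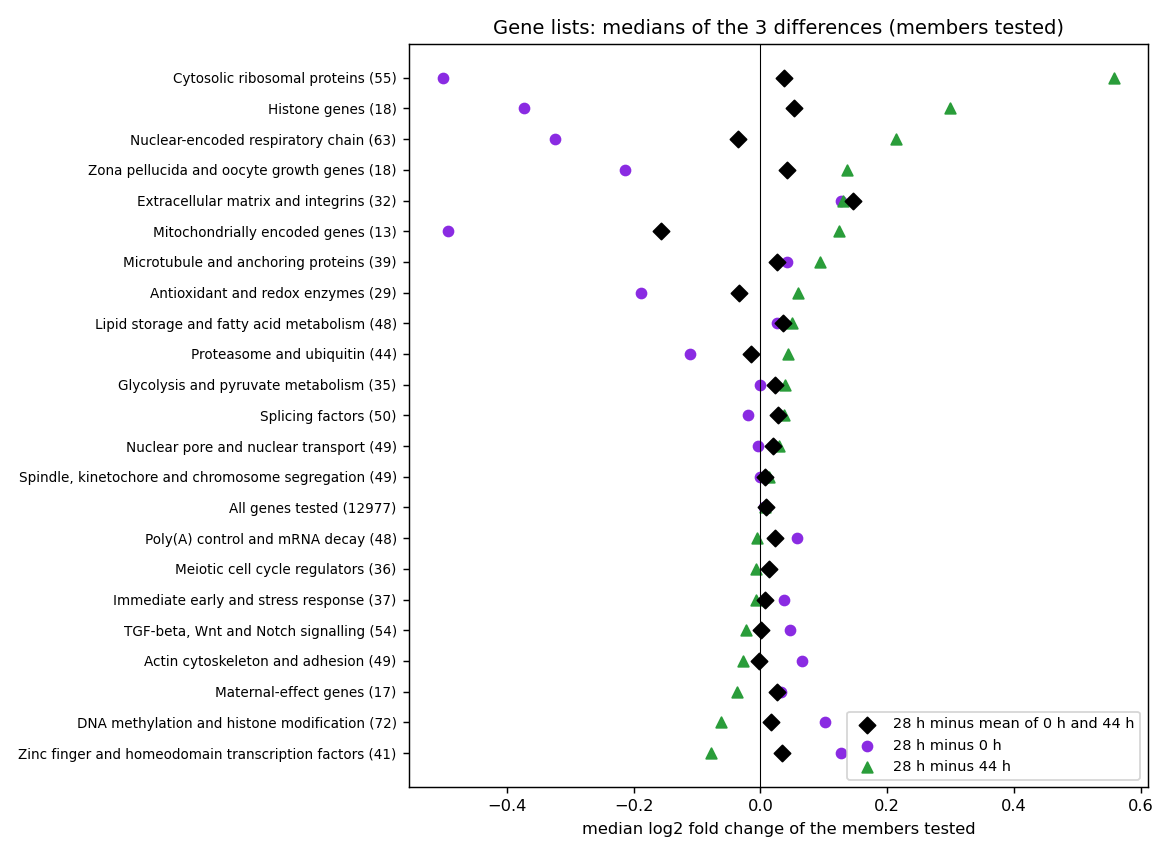
Median log2 fold change of the tested members of each gene list (number tested in brackets, with all genes tested as 1 row) for 28 h minus the mean of 0 h and 44 h (black diamonds), 28 h minus 0 h (purple circles) and 28 h minus 44 h (green triangles). Ribosomal proteins have the widest spread, from -0.50 to 0.56, around a black diamond at 0.04, and the black diamonds of all lists lie between -0.16 and 0.15.

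Markers of cells that could remain on a denuded oocyte were read beside these results. Of 28 cumulus and granulosa cell markers in the table, FSHR, the receptor of follicle-stimulating hormone, was at 0 in every library, and INHBA was the called one of the 16 tested. The markers summed to 466 to 496 CPM in the 28 h libraries, against 455 to 497 CPM in those of 0 h and 400.2 to 412 CPM in those of 44 h, and most of that came from AMH, KITLG, VCAN and GREM1, which were high at all times. The 23 markers with a mean under 10 CPM at 0 h, a subset chosen after the data were seen, summed to 27.8 to 32.1 CPM in the 28 h libraries, against 23.5 to 30.8 CPM in those of 0 h and 19.8 to 43.9 CPM in those of 44 h. Replicate 1 of 44 h was the highest of these, with 4.69 CPM of PTGS2 and 3.42 CPM of NR5A2, and INHBA was also highest there among the 44 h libraries. Without it 49 genes were called in the contrast and 8 in the stricter test. Replicate 4 of 28 h, the highest of its group for INHBA and FLNA, had 2.21 CPM of GJA1, against 0.137 and 0.203 CPM in the other 28 h libraries. Without that library 35 genes were called in the contrast and 8 in the stricter test. The part of such cells in the results was not tested beyond this.

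The marker sums and the mitochondrially encoded share were set against the average of both ends by an exact two-sided permutation test over the 84 ways to choose 3 of the 9 libraries. Its smallest possible p is 0.0119, which for a single sum would not pass after adjustment over the 6, and it counts the distance between 0 h and 44 h as spread, so its p-values do not show that a sum was level. For the cumulus and granulosa sum the difference was 44.9 CPM (exact p = 0.107, 0.357 adjusted over the 6 sums tested), and for its 23 scarce markers 2.76 CPM (exact p = 0.655). Theca and stromal markers summed to 62.8 ± 2.15 CPM at 28 h, against 70.0 ± 4.77 CPM at 0 h and 65.4 ± 3.08 CPM at 44 h (SD, n = 3 each; exact p = 0.119), with CYP17A1 and LUM at 0 in every library. Blood and endothelial markers summed to 366 ± 17.97 CPM at 28 h, against 380 ± 21.1 CPM at 0 h and 315 ± 16.9 CPM at 44 h (SD, n = 3 each; exact p = 0.417), and oocyte markers to 16319 ± 491 CPM at 28 h, against 20118 ± 1841 CPM at 0 h and 14398 ± 323 CPM at 44 h (exact p = 0.667). Mitochondrially encoded genes took 0.824%, 0.848% and 0.447% of counts at 28 h, against 1.04%, 1.02% and 1.13% at 0 h and 0.566%, 0.608% and 0.800% at 44 h (exact p = 0.393). Replicate 4 was the lowest at 28 h, and the 28 h and 44 h libraries overlapped.

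**Figure D5:**
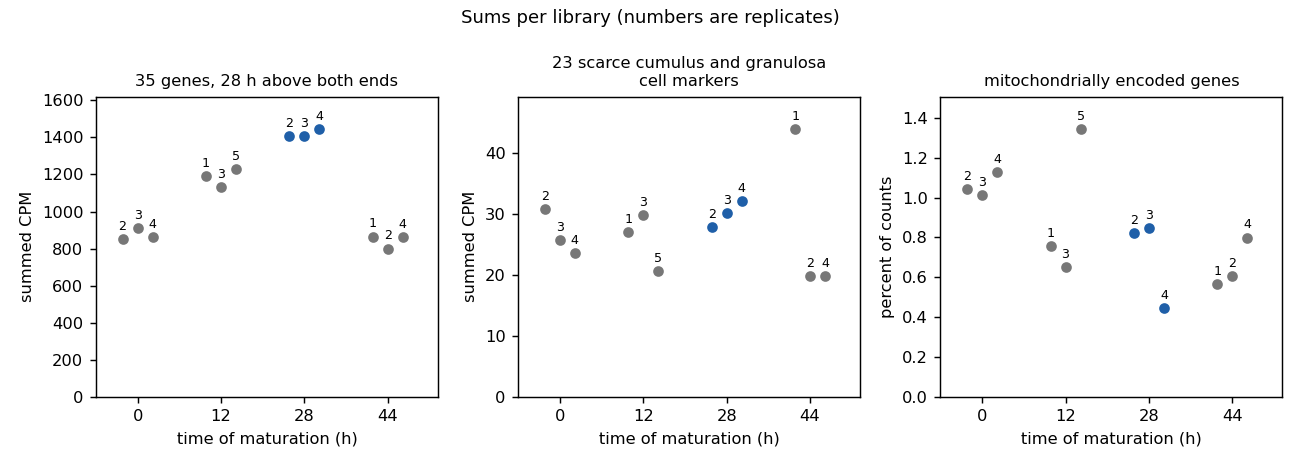
Sums per library at 0, 12, 28 and 44 h (x axis, 28 h in blue, numbers are replicates): summed CPM of the 35 genes with 28 h above both ends, summed CPM of 23 cumulus and granulosa cell markers with a mean under 10 CPM at 0 h, and the percent of counts on mitochondrially encoded genes. The 35 genes separate 28 h, at 1407 to 1447 CPM, from all other libraries, while the marker sum is highest in replicate 1 of 44 h, at 43.9 CPM, and the mitochondrial share overlaps between 28 h and 44 h.

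Gene models of the 35 genes tended to be longer than those of the 18. The median length relative to all genes was 1.21 over 34 of the 35 genes with a length and 0.832 over the 18, a description of 2 sets chosen by their values. Across 11212 genes, which are not independent replicates, the rank correlation of length with the log2 difference was 0.0547.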

How the data were processed

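RNA of denuded pig oocytes was sequenced on a NovaSeq after stranded total RNA library preparation, per the labels' protocols. The deposited table gives, per the file headers, total counts of reads that the authors assigned to each gene in each library, and these whole numbers were the input here. RPKM values deposited by the authors in the same table, per the file headers scaled by gene length and library, were used only for relative gene length. The submitters' processing notes name DESeq2 and the build Sscrofa11.1; the aligner, the rule for reads matching several genes and the use of strand are not given in the sources used here.

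The table held 28965 genes, 16246 with a symbol and 785 more named from a name table. Low-count genes were removed with filterByExpr (minimum count 10). A model with 1 mean per time, TMM scaling (0.979 to 1.02) and robust estimation was fitted to all 12 libraries in edgeR 4.0.16 (R 4.3.3). The contrast on the log2 scale was 28 h minus the mean of 0 h and 44 h, tested by quasi-likelihood F tests whose p-values were adjusted by Benjamini-Hochberg over 12977 genes, at 0.05. A peak or dip was tested by the larger of the 2 one-sided p-values. The SE is the log2 difference divided by the square root of F. CPM of single genes use TMM-scaled totals, those of marker sums plain totals. The biological coefficient of variation was 10.6%; totals of 21877235 to 26015373 counts leave counting error small at 10 CPM and above. The code was tested on simulated data. No libraries held identical counts, and 0 count columns belonged to other samples.

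Named were the 8 largest called peaks with a gene symbol, a 28 h mean of at least 10 CPM and no overlap, the 4 largest called genes between the ends, up to 2 called members per list by adjusted p and a panel of 13 genes; MAP1A and PALM2AKAP2 stand under the first part. A few called genes are counted but not described here. Members, panel and the 22 lists and 4 marker lists were chosen with earlier results of these data known. Alternatives were RLE, upper-quartile and plain scaling, TMM without mitochondrially encoded genes, no filter, 1 CPM in 3 libraries, DESeq2 1.42.0, limma-voom (3.58.1), the 9 libraries alone, no robust estimation, both ends as 1 group, a replicate block and each library left out.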

Additional observations from a re-analysis of the deposited data

How the results depend on the processing

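The 53 calls, all higher, became 52 to 53 under other scalings and a filter of 1 CPM, 56 with limma-voom, 57 without robust estimation and 60 with the 9 libraries alone, again with 0 lower. Without a filter 72 genes were called (70 higher, 2 lower, MADD and CDCP2). DESeq2 called 85 (82 higher, 3 lower) and contained all 53. Treating 0 h and 44 h as 1 group of 6, which counts the distance between the ends as spread, left 5 calls, all 5 higher: TRIM56, PENK, SAMD4A, NEK9 and TRAK2; there RACK1 reversed to -0.0355 (adjusted p = 1), as it did on the linear scale, added after the data were seen, at -0.659 CPM. The stricter test called 9 to 13 genes in these fits, and 0 dips in all fits where it was run. On the log2 scale FLNA passed as higher with DESeq2, without robust estimation and without replicate 3 of 28 h. ZP3 passed as higher with DESeq2, limma-voom, without robust estimation and without replicate 3 or 4 of 0 h. On the linear scale 28 h lay below the average of both ends for both genes, at -2.26 CPM for FLNA and -168 CPM for ZP3. The direction for FLNA and ZP3 thus depends on the scale.

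Leaving out each library in turn gave 30 to 63 calls, 30 to 63 higher and 0 to 6 lower, with 4 to 13 peaks and 0 dips. The lowest counts came without replicate 3 of 28 h (30 calls, 4 peaks) and replicate 4 of 28 h (35 calls, 8 peaks); 6 peaks were left without replicate 2 of 28 h, which also gave 2 lower genes, and 5 without replicate 4 of 44 h. The 6 lower genes appeared without replicate 3 of 0 h. Across the 12 such fits 27 of the 53 genes kept their call, 21 of the 35 and 6 of the 18. PALM2AKAP2, TRIM56, KIF1C and ZEB2 were peaks in each.

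Replicate numbers are partly shared between times. The deviations of 10 same-numbered pairs correlated at -0.00606 to 0.127, over 0.1 in 2 pairs. Pairs with different numbers ran from -0.1145 to 0.0668, so the 2 highest values belonged to same-numbered pairs. The main fit did not pair the libraries, and whether same-numbered libraries share a source was not tested. With a replicate block 74 genes were called (73 higher, 1 lower, MADD), all 53 among them, and 13 peaks.

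The difference in the cumulus and granulosa sum had an unadjusted exact p of 0.0476 with TMM-scaled CPM (46.9 CPM), against 0.107 as reported. Without replicate 4 of 0 h the exact p was 0.0357 (difference 51.4 CPM). Over the libraries left out the difference ran from 38.6 to 53.6 CPM. These differences weigh both ends equally. Where a library of 0 h or 44 h was left out, the test instead used the plain mean of the remaining end libraries, so its p belongs to a slightly different value. The other sums had unadjusted p-values above 0.05 in their alternatives. Depth limits the 16 genes of the 35 with a 0 h mean under 1 CPM.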
